A study of Mus musculus with 9 samples.

Results

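The stress keratins are 4 keratin genes, Krt6a, Krt6b, Krt16 and Krt17, chosen by name from the 55401 genes of the count table. Counts above 0 in any library were found for 34637 genes, of which 20817 passed the filter on low counts and were tested, all 4 stress keratins included. Keratins are the intermediate filament proteins of epithelial cells, and each filament is built from a type II and a type I chain. Krt6a and Krt6b encode type II chains, and Krt16 and Krt17 encode type I chains. In resting skin these genes are known from the hair follicle, the nail and other stressed epithelia. After wounding or in inflamed, thickened epidermis, keratinocytes switch them on outside the follicle, and they are then read as markers of keratinocyte activation.

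The 9 libraries were made from back skin RNA, with n = 4 for Model and n = 5 for FJDHF-M. All mice were C57BL/6 males of 6 to 8 weeks whose backs were shaved on day 0, sensitized on day 1 with 200 µL of 1% DNCB, a small reactive molecule that raises contact allergy, and painted again with 100 µL of 0.5% DNCB between day 4 and day 21. The FJDHF-M mice received Fangji Dihuang formulation, an extract of several plants, by mouth daily after day 7 until day 28, and the Model mice received water. Skin was taken on day 28, and the last DNCB was given on day 21. Skin without DNCB was not analysed here, so no level below can be set against resting skin. The tables name their columns by codes that no source used here spells out. Codes beginning MR (5 columns) were read as FJDHF-M and codes beginning MXL (4 columns) as Model, because these counts match the group sizes and MXL fits the pinyin initials of the Chinese for model. Every direction below rests on that reading. Columns could not be tied to individual mice, and whether a code with more than 1 number, such as MR3_4, marks pooled RNA is unknown, so n counts libraries. If such codes mark pools, libraries with a shared number, such as MR3 and MR3_4, could hold RNA of the same mouse. All p-values below treat the 9 libraries as independent, and whether they are was not tested.

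Krt6a (ENSMUSG00000058354, chr15:101689910-101694307) and Krt6b (ENSMUSG00000023041, chr15:101676023-101680287) are neighbours on the minus strand of chromosome 15 in GRCm38, beside Krt5. Krt16 (ENSMUSG00000053797, chr11:100246091-100248902) and Krt17 (ENSMUSG00000035557, chr11:100256217-100261029) are neighbours on the minus strand of chromosome 11, near Krt14. The coding sequences of the GENCODE M21 transcripts hold 1662 bases in Krt6a and 1665 in Krt6b, each over 9 exons of the transcript. Of 1662 aligned bases 1625 were identical (97.8%). Krt16 (1410 coding bases) and Krt17 (1302) were identical at 77.5% of 1286 aligned bases. The likeness of Krt6a and Krt6b decides how far reads can tell them apart, so the coding window of 60 bases in which they differ most is shown, with the 10 differing bases in capitals. It lies at chr15:101692484-101692543 in Krt6a and at chr15:101678303-101678362 in Krt6b.
Krt6a: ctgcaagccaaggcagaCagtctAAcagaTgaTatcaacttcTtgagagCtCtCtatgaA
Krt6b: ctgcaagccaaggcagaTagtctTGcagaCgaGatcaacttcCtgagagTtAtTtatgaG

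The longest coding run without any difference between them has 280 bases, which is longer than a read of 150 bases. It starts at base 34 of the coding sequence and lies at chr15:101693936-101694215 in Krt6a and at chr15:101679911-101680190 in Krt6b, and it is shown because a single read inside it fits either gene.
Krt6a and Krt6b: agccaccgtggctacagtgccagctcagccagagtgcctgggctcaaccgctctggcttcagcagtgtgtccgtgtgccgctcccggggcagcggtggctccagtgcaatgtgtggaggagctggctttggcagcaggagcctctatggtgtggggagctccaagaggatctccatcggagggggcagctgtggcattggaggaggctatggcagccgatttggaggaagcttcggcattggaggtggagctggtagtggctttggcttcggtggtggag

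Between Krt16 and Krt17 the longest such run has 55 bases (chr11:100246625-100246679 in Krt16 and chr11:100257448-100257502 in Krt17), and it is shown for contrast.
Krt16 and Krt17: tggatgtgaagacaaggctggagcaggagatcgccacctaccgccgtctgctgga

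Of all windows of 150 bases along the transcript of Krt6a, 18.7% occurred unchanged in a transcript of another gene, almost all of them in Krt6b. The share was 18.8% for Krt6b, and all of it was shared with Krt6a. In Krt16 it was 18.4%, all of it shared with Gm11597, a pseudogene on the same strand that lies between Krt14 and Krt16. Krt17 shared no window of 150 or 100 bases with another gene. How the counting placed such reads is not given in the sources used here, so the split between Krt6a and Krt6b is uncertain, as are the counts of Krt16 to the extent of the pseudogene. Gm11597 was counted at 7.87% to 11.9% of the CPM of Krt16 in each library. An antisense gene, Gm49428, overlaps Krt6a and had 9 to 160 counts per library.

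The counts of the 4 genes were far above zero in each library. The lowest was 894 (Krt6b in MXL_3) and the highest 119777 (Krt6a in MR4_5), at total counts of 74648669 to 79474215 per library. Levels are given as CPM, read counts scaled to library size with edgeR's TMM method, for comparing 1 gene between libraries, and as FPKM, which is also per gene length, for comparing genes.

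No stress keratin gene passed the test between the groups. A gene was called when it changed at least 2-fold with an adjusted p below 0.05, and 0 of the 4 were called, beside 0 of all 20817 tested genes (0%), in edgeR's quasi-likelihood test. At an unadjusted p under 0.05 the test gave 0 of the 4, beside 326 of all genes (1.57%). The groups overlapped in CPM for all 4, and they did not overlap for 107 of all genes (0.514%). The log2 fold change, FJDHF-M minus Model, was above 0 for Krt6a, Krt6b and Krt16 and below 0 for Krt17. Its median was 0.80 over the 4 genes and -0.03 over all tested genes. With 1 library left out, the median of the 4 ran from -0.01 (without MR4_5) to 1.59 (without MXL12).

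Krt16, the type I partner of Krt6 in activated epidermis, had the smallest p of the 4. Its level was 463 CPM in MR1, 188 in MR3, 331 in MR3_4, 1262 in MR4_5 and 459 in MR5, against 189 in MXL1, 564 in MXL12, 75.9 in MXL3_4 and 43.1 in MXL_3. All 5 FJDHF-M libraries lay above the median of the Model libraries, and MXL12 lay above 4 of the 5. The FJDHF-M mean was 541 ± 419 CPM (SD, n = 5), and the Model mean was 218 ± 239 CPM (SD, n = 4). In edgeR the log2 fold change was 1.31 with a standard error of 0.76 (2.48-fold, unadjusted p = 0.114, adjusted p = 1). The difference in mean log2(CPM + 0.5) was 1.69 (two-sided exact permutation test over all 126 assignments of 4 and 5 libraries, p = 0.103), where 0.00794 is the smallest p the design allows.

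Krt6b had the widest range of the 4, 78.2-fold between its highest and lowest library. It had 159 CPM in MR1, 89.3 in MR3, 84.5 in MR3_4, 967 in MR4_5 and 338 in MR5, and 63.0 in MXL1, 460 in MXL12, 35.4 in MXL3_4 and 12.4 in MXL_3. Again each FJDHF-M library lay above the Model median, and MXL12 stood among the highest FJDHF-M libraries. The means were 327 ± 372 CPM (SD, n = 5) and 143 ± 212 CPM (SD, n = 4). The log2 fold change was 1.20 with a standard error of 1.06 (2.30-fold, unadjusted p = 0.283, adjusted p = 1 in edgeR), and the exact permutation p of the log2 difference of 1.79 was 0.19.

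Krt6a, the more abundant of both type II genes per length in each library, showed the smallest fold change of the 3 with a higher fitted level in the FJDHF-M group. The FJDHF-M libraries held 277 CPM in MR1, 409 in MR3, 235 in MR3_4 (234.5 before rounding), 1508 in MR4_5 and 642 in MR5. The Model libraries held 533 in MXL1, 797 in MXL12, 436 in MXL3_4 and 104 in MXL_3. Only MR4_5 and MR5 lay above the Model median, and 3 of the 4 Model libraries lay above MR1, MR3 and MR3_4. The means were 614 ± 524.5 CPM (SD, n = 5) and 467 ± 286 CPM (SD, n = 4), with a log2 fold change of 0.39 and a standard error of 0.64 (1.31-fold, unadjusted p = 0.551, adjusted p = 1 in edgeR). The exact permutation p of the difference of 0.37 in log2 CPM was 0.667.

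Krt17 differed from the other 3 in which libraries held the most. Its level was 71.4 CPM in MR1, 335 in MR3, 78.7 in MR3_4, 127 in MR4_5 and 23.7 in MR5, against 834 in MXL1, 33.8 in MXL12, 77.7 in MXL3_4 and 52.3 in MXL_3. MXL1 and MR3 held most of it, whereas MXL12 and MR5, both high in Krt16 and Krt6b, were the 2 lowest. Of the 5 FJDHF-M libraries 4 lay above the Model median, yet the mean was lower, 127 ± 122 CPM (SD, n = 5) against 249.5 ± 390 CPM (SD, n = 4). The log2 fold change was -0.97 with a standard error of 0.98 (1.96-fold lower, unadjusted p = 0.347, adjusted p = 1 in edgeR), and the difference of -0.21 in log2 CPM had an exact permutation p of 0.841.

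**Figure D1:**
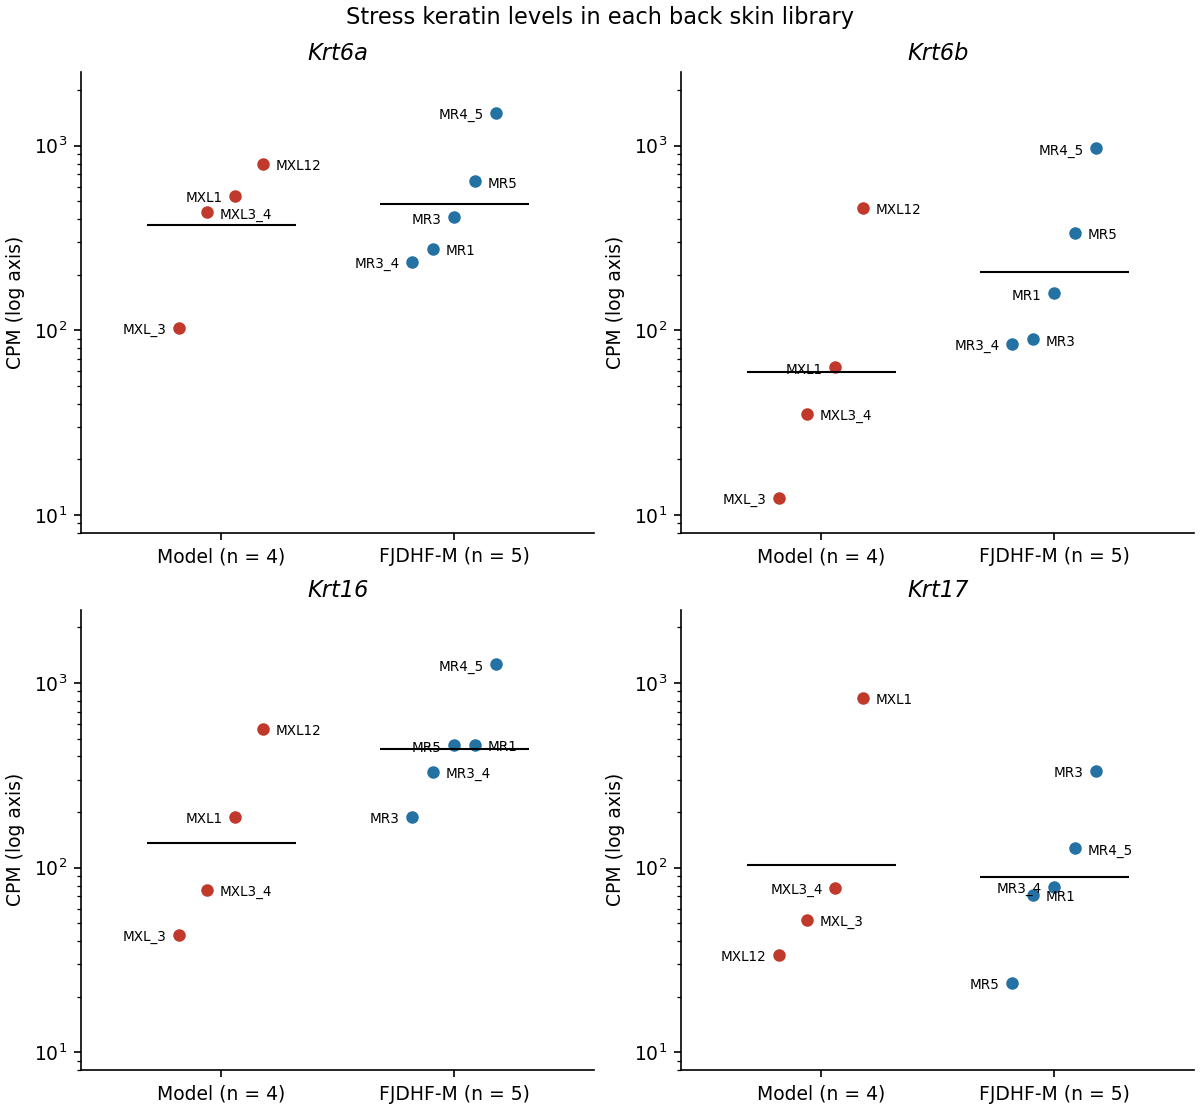
Level of each stress keratin gene in each library in CPM on a log axis. Each point is 1 library with its column code, red for the Model group (n = 4) and blue for the FJDHF-M group (n = 5), and the black line is the geometric mean of the group. MR4_5 is the highest library in Krt6a, Krt6b and Krt16 and MXL_3 the lowest, whereas MXL1 is the highest in Krt17 and MR5 the lowest.

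Single libraries set the size of these differences. Without MXL12 the log2 fold change of Krt6b was 3.15 and that of Krt16 2.40, and the exact permutation p of their log2 CPM differences was 0.0357 for both, while the adjusted p in edgeR was 0.983 or above for each of the 4 genes with any library left out. Without MR4_5 the log2 fold changes were 0.23 for Krt6b, 0.73 for Krt16 and -0.26 for Krt6a. Without MXL_3 that of Krt6a was 0.06. Without MXL1 the log2 fold change of Krt17 turned to 1.22, and without MR3 it was -1.77.

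**Figure D2:**
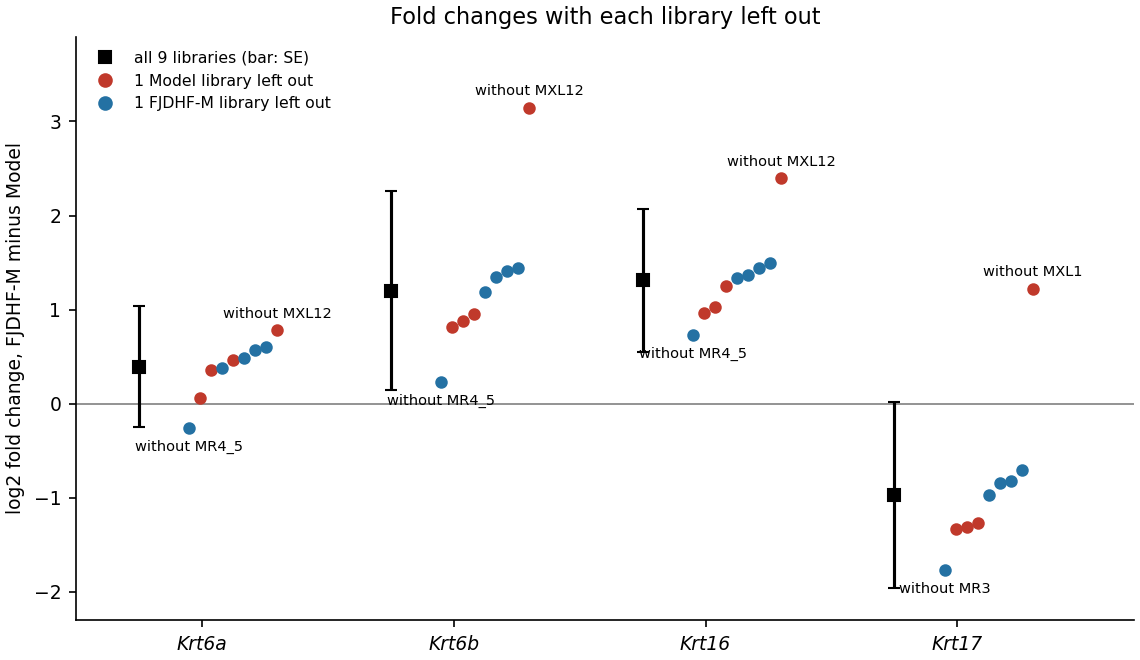
Log2 fold change of each stress keratin gene from edgeR, FJDHF-M minus Model. Black squares are the fit on all 9 libraries with its standard error, and circles are fits without 1 library, red where it was a Model library and blue where it was an FJDHF-M library. The values of Krt6b spread from 0.23 to 3.15 and those of Krt17 from -1.77 to 1.22.

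MXL12 and MXL_3 also stood at the ends of other marker lists, with level meaning here the mean log2(CPM + 0.5) of a list. The neutrophil level was 4.88 in MXL12 and 1.42 to 2.74 in the other libraries. The 9 genes of that list had 0 log2 fold changes above 0 and 9 below 0 with all libraries, and 4 above and 5 below without MXL12. The skeletal muscle level was 10.4 in MXL_3, the highest, and 5.30 in MXL12, the lowest. Over the 9 libraries the muscle level ran against Krt6a (r = -0.81, rho = -0.87), Krt6b (r = -0.75, rho = -0.75) and Krt16 (r = -0.62, rho = -0.77), relations chosen after the values were seen and therefore given without p. Without MXL12 and MXL_3 the r values were -0.75, -0.55 and -0.35. With the muscle level as a covariate, also chosen after the data were seen, the log2 fold change was 0.62 for Krt6a, 2.10 for Krt6b (unadjusted p = 0.000294, adjusted p = 0.673 in edgeR) and 1.85 for Krt16 (unadjusted p = 0.000992, adjusted p = 1). The fibroblast level ran against Krt6a at r = -0.79, Krt6b at -0.68 and Krt16 at -0.62, and the adipocyte level at -0.78, -0.61 and -0.42. In whole skin, fewer cells that carry a keratin and less of its RNA per cell cannot be told apart.

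Per gene length the order of the 4 was not fixed. Among the 53 keratin genes with an FPKM value above 0 in some library, ranked by their median over the 9 libraries, Krt16 was 8 (193 FPKM), Krt6a 9 (168 FPKM), Krt17 17 (46.3 FPKM) and Krt6b 19 (39.3 FPKM). The ranks within a library ran from 3 to 22 for Krt16, from 5 to 13 for Krt6a, from 6 to 22 for Krt17 and from 7 to 31 for Krt6b. Ranges in FPKM were 25.1 to 794 for Krt16, 39.0 to 614 for Krt6a, 14.9 to 524 for Krt17 and 5.03 to 426 for Krt6b, so neighbours in this order do not differ beyond their spread. Krt16 was the highest of the 4 in MR1, MR3_4, MR4_5, MR5 and MXL12, Krt17 in MR3 and MXL1, and Krt6a in MXL3_4 and MXL_3.

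Together the 4 genes made up between 4.31% of the summed keratin FPKM (MXL_3) and 25.5% (MXL12). In the FJDHF-M group the share was 8.11% in MR1, 5.56% in MR3, 7.45% in MR3_4, 17.7% in MR4_5 and 12.5% in MR5. MXL1 had 9.59% and MXL3_4 5.57%, so the groups overlapped. The sum over all keratin genes was 3398 FPKM in MXL12 and 2314 FPKM in MXL_3, and 4869 FPKM or more in the other libraries.

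**Figure D3:**
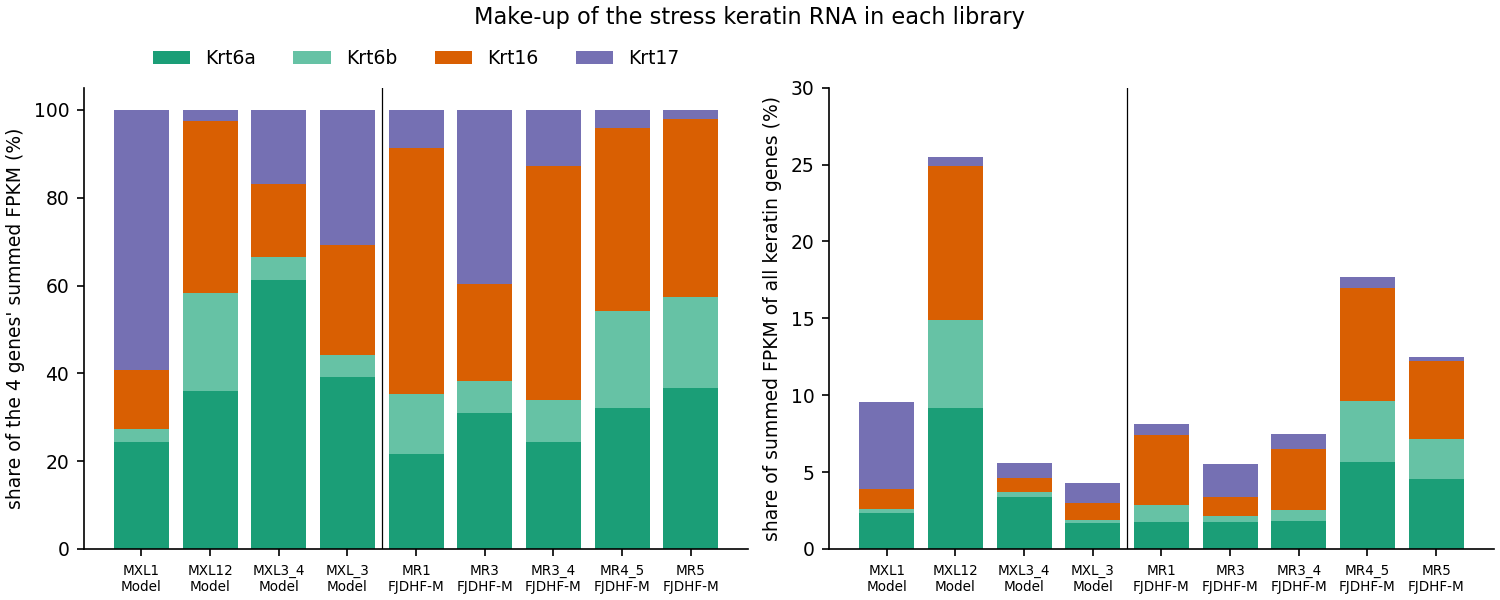
Make-up of the stress keratin RNA per library, Model libraries to the left of the vertical line and FJDHF-M libraries to the right. The left bars split the summed FPKM of the 4 genes in percent, and the right bars give each gene as a percent of the summed FPKM of all keratin genes. Krt17 is 59.3% of the 4 in MXL1 and 39.6% in MR3, against 2.11% in MR5 and 2.38% in MXL12.

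Ratios within a library do not depend on its total count. The ratio of Krt6b to Krt6a in FPKM was 0.62 in MR1, 0.236 in MR3, 0.39 in MR3_4, 0.694 in MR4_5 and 0.569 in MR5. In the Model libraries it was 0.128 in MXL1, 0.624 in MXL12, 0.0878 in MXL3_4 and 0.129 in MXL_3. Each FJDHF-M library lay above 3 of the 4 Model libraries, and MXL12 lay above 4 of the 5 FJDHF-M libraries. The log2 difference was 1.43 (two-sided exact permutation test, p = 0.0794), and without MXL12 it was 2.05 with p = 0.0179, the smallest p that 5 against 3 allow. Reads that fit both genes enter this ratio, and their part in it was not tested.

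The ratio of Krt16 to Krt17 was 6.43, 0.556, 4.17, 9.84 and 19.2 in MR1, MR3, MR3_4, MR4_5 and MR5, and 0.225, 16.5, 0.969 and 0.816 in MXL1, MXL12, MXL3_4 and MXL_3. In 4 of the 5 FJDHF-M libraries it was 4.17 or more, and in 3 of the 4 Model libraries it was 0.969 or less, with MR3 and MXL12 as the exceptions. The log2 difference was 1.90 (exact permutation p = 0.246), and without MXL12 it was 3.12 (exact permutation p = 0.0893). The sum of the type II genes over that of the type I genes lay between 0.514 and 1.35 in the FJDHF-M group and between 0.377 and 1.99 in the Model group. Its log2 difference was -0.30 (exact permutation p = 0.587).

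**Figure D4:**
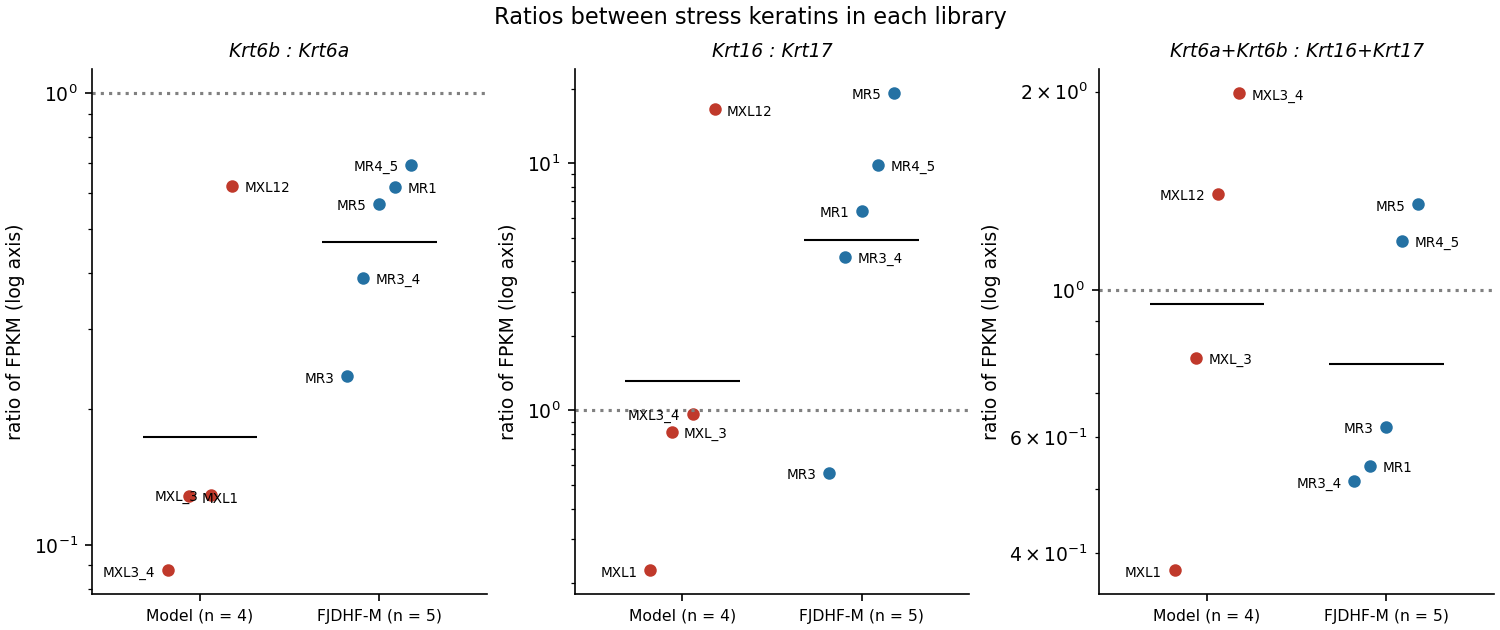
Ratios of FPKM between stress keratin genes in each library, on log axes. Each point is 1 library, red for Model and blue for FJDHF-M, the black line is the geometric mean of the group, and the dotted line marks equal levels. Krt6b to Krt6a is between 0.236 and 0.694 in the FJDHF-M libraries and at most 0.129 in 3 of the 4 Model libraries, with MXL12 at 0.624.

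Krt6b and Krt16 followed each other closely from library to library, Krt6a followed Krt6b less closely, and no correlation of Krt17 with the other 3 passed the test. Over the 9 libraries, on log2(CPM + 0.5), Krt6b and Krt16 had r = 0.963 (exact permutation, adjusted p = 0.000397 over the 6 pairs) and rho = 0.933 (adjusted p = 0.0045). Without MR4_5 and MXL_3, the 2 libraries farthest from the median of Krt6b, r was 0.894. Krt6a and Krt6b had r = 0.846 (exact permutation, adjusted p = 0.0143) and rho = 0.733 (adjusted p = 0.0934), and r = 0.494 without MR4_5 and MXL_3. Krt6a and Krt16 had r = 0.74 (exact permutation, adjusted p = 0.0456) and rho = 0.667 (adjusted p = 0.118), and r = 0.123 without these 2, so the relation of Krt6a with Krt16 rests on them. With the group means removed, r was 0.958 for Krt6b with Krt16, 0.884 for Krt6a with Krt6b and 0.801 for Krt6a with Krt16. Reads that fit both Krt6a and Krt6b enter the correlation of this pair, and their part in it was not tested. Krt17 had r = 0.097 with Krt6a, -0.20 with Krt6b and -0.12 with Krt16 (exact permutation, adjusted p = 0.8 for each). Without the 2 libraries farthest from the median these were -0.17, -0.63 and -0.56, the first 2 without MR4_5 and MXL_3 and the last without MXL_3 and MXL3_4.

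Krt17 ran with the basal keratins, a relation seen in the data first and given without p. Its r was 0.885 with Krt14, 0.835 with Krt5, the pair of the basal layer, and 0.838 with Krt15, a keratin of basal and follicle bulge cells, against 0.102 to 0.473 for Krt6a, -0.11 to 0.20 for Krt6b and 0.03 to 0.25 for Krt16. With Krt14, rho was 0.933, and r was 0.87 without MXL1 and MR4_5. Krt14 had 907 CPM in MR1, 1272 in MR3, 506 in MR3_4, 1592 in MR4_5 and 202.5 in MR5, and 2322 in MXL1, 207.5 in MXL12, 346 in MXL3_4 and 252 in MXL_3. Taken relative to Krt14, the log2 difference between the groups was -0.87 for Krt17 (exact permutation p = 0.0873), -0.29 for Krt6a (p = 0.802), 1.13 for Krt6b (p = 0.476) and 1.03 for Krt16 (p = 0.429). Other keratin and hair lists ran with Krt17 too, so the relation was not limited to basal keratins. The r was 0.886 for the basal keratin level, 0.908 for the level of other follicle, gland and simple epithelial keratins, 0.775 for the suprabasal keratin level, 0.772 for the outer root sheath and bulge level, 0.763 for the hair shaft level and 0.696 for the inner root sheath level. The single suprabasal keratins differed, from -0.03 for Krt1 and 0.307 for Krt10 to 0.659 for Krt78 and 0.877 for Krt80.

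The base composition of the libraries moved with Krt17 as well. For each library the deviation of each gene from its mean over libraries was taken, and its median over genes with a GC content below 41.1% was subtracted from its median over genes above 57.3%. This gap was 0.90 in MXL1 and 0.72 in MR3 on the log2 scale, from -0.44 to 0.22 in MR1, MR3_4, MR4_5, MXL3_4 and MXL_3, -0.84 in MXL12 and -0.85 in MR5. It ran with Krt17 at r = 0.875 (rho = 0.783, and r = 0.802 without MR5 and MXL12) and with Krt14 at r = 0.815, against -0.30 with Krt6a, -0.39 with Krt6b and -0.24 with Krt16. These relations were chosen after the values were seen and have no p. The transcript of Krt17 has a GC content of 58.9% and that of Krt14 57.2%, and those of Krt6a, Krt6b and Krt16 have 54.3%, 53.8% and 55.8%. With the gap as a covariate the log2 fold change of Krt17 was -0.59 (unadjusted p = 0.208, adjusted p = 1 in edgeR). The same fit gave 0.44 for Krt6a, 1.71 for Krt6b (unadjusted p = 0.112) and 1.49 for Krt16 (unadjusted p = 0.0761), and called 0 of the 4. Whether base composition moved any of these levels was not tested.

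**Figure D5:**
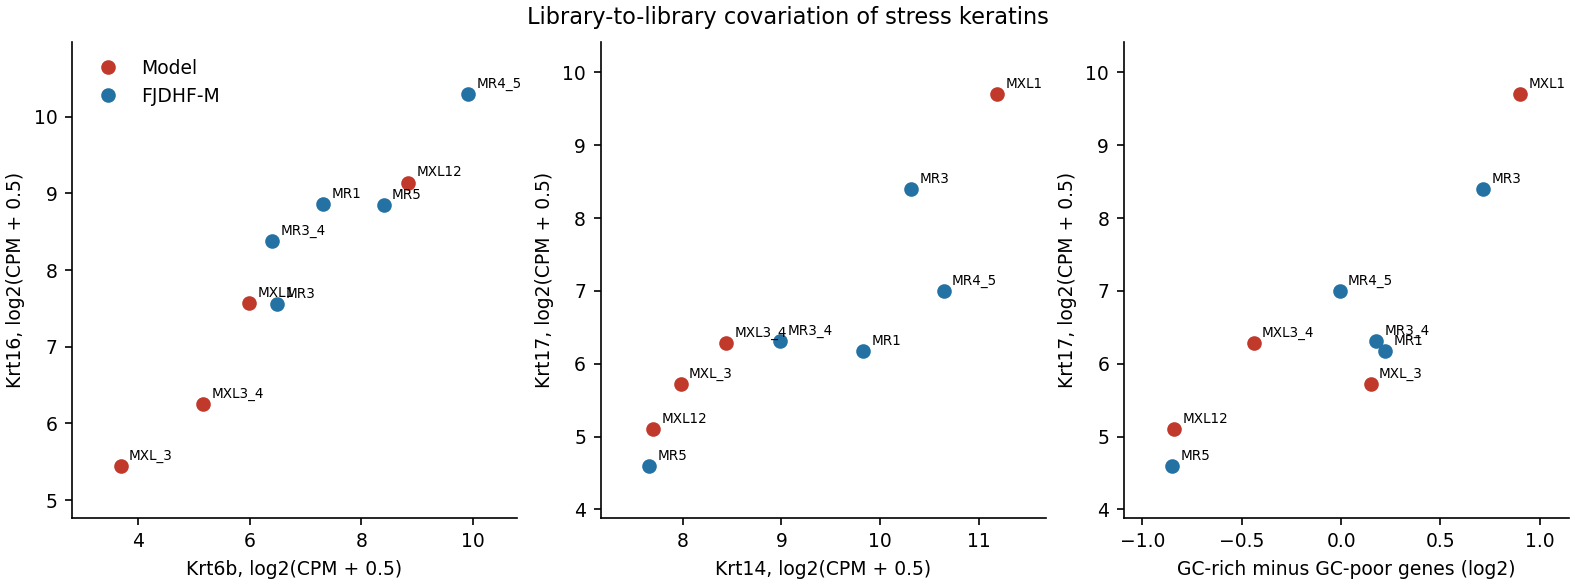
Covariation over the 9 libraries, each a point with its column code, red for Model and blue for FJDHF-M, with levels as log2(CPM + 0.5). The left panel sets Krt16 against Krt6b (r = 0.963), the middle panel Krt17 against Krt14 (r = 0.885), and the right panel Krt17 against the gap between GC-rich and GC-poor genes (r = 0.875). MXL1 and MR3 lie at the top of the middle and right panels, whereas MR4_5 and MXL12 lie at the top of the left one.

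Of the 20817 tested genes those most like Krt16 were Gm11597, the pseudogene that shares its sequence (r = 0.992), Klk13, a kallikrein protease gene (0.986), and Sprr1b, a small proline-rich protein of the cornified envelope (0.967). Sprr1b was also among the 3 most like Krt6b (r = 0.963), behind Gm11597 (0.974) and Igsf3 (0.968), and it ordered the libraries exactly as Krt6b did (rho = 1). Most like Krt6a were Cldnd1, Plp2 and Cdca7l (r from 0.957 to 0.973). Most like Krt17 were Bcl2l1, which encodes a survival protein of many cell types, Mbd6 and Cc2d1b (r from 0.983 to 0.988). The 8 genes with the highest mean r over all 4 members were Slc6a20a, Nuak2, 2810408I11Rik, Cd3eap, Grip1, Pla2g4e, Gm7935 and Itprip, at 0.678 to 0.714. In these 8 genes r with Krt17 was at most 0.495, and with Krt6a it was 0.863 to 0.942. All these values describe the same 9 libraries, which differ in base composition as given above.

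Among the structural keratins of the epidermis, no gene was called. Krt1 and Krt10, the pair of the differentiating layers, had log2 fold changes of 1.48 (standard error 0.41, unadjusted p = 0.00446, adjusted p = 1 in edgeR) and 1.23 (standard error 0.39, unadjusted p = 0.00996, adjusted p = 1). Krt1 had 2561 to 8356 CPM in the FJDHF-M libraries (median 4503) and 944.5 to 2835 in the Model libraries (median 1530), with MXL1 above MR3. Krt77, another suprabasal keratin, had -2.10 (unadjusted p = 0.0215, adjusted p = 1). The log2 fold changes of the other 3 tested suprabasal keratins were 0.66 for Krt78, 0.33 for Krt80 and -0.26 for Krt2. Krt2 was measured at a low level, 0.18 to 0.67 CPM over all libraries. The basal keratins had log2 fold changes of 0.15 for Krt5, 0.20 for Krt14 and -0.20 for Krt15. Of these 3 basal keratins, 3 were above 0 without MXL1, and 0 without MR4_5, MXL12 or MXL_3. Krt1 ran with Krt16 at r = 0.723 and with Krt6b at 0.663, and its r with Krt17 was -0.03. Of 11 other keratins of follicle, gland and simple epithelia, 6 had a log2 fold change above 0 and 5 below 0, none at an unadjusted p under 0.05. Without MXL1, 10 of 12 were above 0, 3 of them at an unadjusted p under 0.05. The share of all genes in that fit was not computed. Krt75, a type II keratin of the hair follicle, had -0.53 (unadjusted p = 0.408).

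Among 28 further genes of wounded and hyperproliferative epidermis, 0 were called and 14 had a log2 fold change above 0 and 14 below 0 (median 0.01, beside -0.03 for all genes). At an unadjusted p under 0.05, 5 were higher and 0 lower, beside 1.57% of all tested genes in either direction. Il1f6, which encodes the interleukin-36 cytokine IL-36α, had 21.1 to 99.9 CPM (median 71.4) in FJDHF-M and 11.1 to 27.3 CPM (median 19.8) in Model, and its log2 fold change was 1.78 (unadjusted p = 0.00158, adjusted p = 1 in edgeR). Sprr2d, another small proline-rich protein gene, had 2.61 (unadjusted p = 0.00723), and Il1f8, which encodes IL-36β, had 1.11 (unadjusted p = 0.0125). Without MXL12, 23 of the 28 were above 0, with a median of 0.50 and 7 at an unadjusted p under 0.05. Without MXL_3, 11 were above 0, with a median of -0.21, and 3 were higher and 1 lower at an unadjusted p under 0.05. The shares of all genes in these fits were not computed. The mean level of the list ran with Krt6b (r = 0.893), Krt16 (0.881) and Krt6a (0.756), and its r with Krt17 was -0.10. Within the list, Sprr1b and Il1f9 (IL-36γ) had r of 0.967 and 0.916 with Krt16, Gjb6, which encodes connexin 30, had 0.902 with Krt6a, and Sfn, the stratifin gene of differentiating keratinocytes, had 0.942 with Krt17.

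Of 34 tested regulators and receptors tied to keratinocyte activation, 0 were called, 20 had a log2 fold change above 0 and 14 below 0 (median 0.03). At an unadjusted p under 0.05, 1 was higher and 1 lower with all libraries, beside 1.57% of all tested genes in either direction. Without MXL1, 4 were higher and 1 lower, and the share of all genes in that fit was not computed. Klf4, a transcription factor of the differentiating epidermis, had a log2 fold change of 0.62 (unadjusted p = 0.01, adjusted p = 1 in edgeR). Il20ra, a receptor chain for the interleukin-20 cytokines, had -0.97 (unadjusted p = 0.0388, adjusted p = 1 in edgeR), and -0.57 without MXL12. The AP-1 gene Fos had 1.34 (unadjusted p = 0.108, adjusted p = 1 in edgeR). The receptor genes for interleukin-17, Il17ra and Il17rc, had 0.0002 (unadjusted p = 0.999) and -0.34 (unadjusted p = 0.567). Trp63, which encodes the p63 factor of stratified epithelia, had a log2 fold change of -0.0008 and ran with Krt6a (r = 0.918, rho = 0.9, and r = 0.807 without MXL_3 and MR4_5). Some regulators ran with Krt17 instead, among them Junb (r = 0.949), Il22ra1 (0.940) and Il17rc (0.938). Junb was at 0.319 to 1.53 CPM and Cebpb at 0.331 to 1.25 CPM, so both were measured at a low level in these libraries.

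The remaining lists show what else the skin samples held, and most of their directions turned with 1 library. The counts with all libraries are set beside all tested genes, of which 9186 of 20817 had a log2 fold change above 0 and 1.57% an unadjusted p under 0.05. For the counts with a library left out, the shares of all genes were not computed. Of 16 proliferation genes 5 lay above 0, and 1 (without MR4_5) to 14 (without MXL12) did so with a library left out. Of 14 hair shaft genes 10 lay above 0, with 1 (without MR3) to 12 (without MXL3_4), and of 9 inner root sheath genes 5, with 0 (without MR3) to 9 (without MR3_4). Of 8 outer root sheath and bulge genes 3 lay above 0, and 5 without MXL1. At an unadjusted p under 0.05 there were 0 genes in each of these 4 lists with all libraries. In the outer root sheath and bulge list, 2 genes were higher at that p without MXL1.

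Of 9 neutrophil genes 2 had an unadjusted p under 0.05, both with a negative log2 fold change. This count was 8 without MXL1, 5 without MXL3_4 and 3 without MXL_3. It was 2 without MR4_5, and 1 without MXL12, MR1, MR3, MR3_4 or MR5. The shares of all genes in these fits were not computed. Mmp8, a collagenase of neutrophil granules, had 1.94 to 4.35 CPM in FJDHF-M and 4.93 to 10.3 CPM in Model, with a log2 fold change of -1.18 that was below 0 with any library left out. Trem1, an activating receptor of neutrophils and monocytes, had -4.08 with all libraries and 1.75 without MXL12, and its median was 0.956 CPM in FJDHF-M and 0.415 CPM in Model. At an unadjusted p under 0.05 there was 1 of 7 fibroblast genes, Col3a1 (-0.57), and this count was 0 to 2 with a library left out, with 6 or 7 genes below 0. There were 0 of 8 macrophage genes (8 above 0, and 5 without MXL3_4), 0 of 7 T cell genes (6 above 0, and 3 without MR1, MR3_4 or MXL3_4) and 0 of 7 adipocyte genes (5 above 0, and 1 without MR3_4). There were 0 of 9 skeletal muscle genes (3 above 0, and 9 without MXL_3 but 0 without MR3, MXL12 or MXL3_4) and 0 of 5 melanocyte genes (5 above 0 with any library left out). At that p, the melanocyte count was 2 without MXL3_4 and 1 without MR5. The T cell count was 1 without MR3 or MXL_3. All of these had a log2 fold change above 0. The proliferation level ran with Krt6a at r = 0.786, with Krt6b at 0.603 and with Krt16 at 0.419, and with Krt17 at -0.17. Keratin and fibroblast genes, the defining genes of epidermis and dermis, were abundant in each library.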

How the data were processed

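RNA of mouse back skin was measured in 9 libraries. The authors deposited whole-number read counts per gene without normalization, and FPKM values scaled for gene length and depth with gene names and GRCm38 positions. The submitters' processing notes name HISAT, StringTie, DESeq2 and the build mm10, without versions or roles, so whether the counts are estimates from coverage, and whether strand was used, is not given in the sources used here. Libraries were poly(A)-selected and strand-specific, read from both ends. The FPKM table repeats the counts in 9 columns, identical to the count table and not used. The columns map to groups by code, as stated in the report.

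The main test was edgeR's quasi-likelihood test (version 4.0.16, under R 4.3.3) without covariates, after filterByExpr and TMM scaling (Benjamini-Hochberg adjustment over all tested genes). The calling rule (adjusted p below 0.05, at least 2-fold) follows the study. For single values, two-sided exact permutation tests over all assignments of the libraries counted absolute differences in mean log2(CPM + 0.5), or in mean log2 ratio of FPKM, at least as large as the observed one. Correlations used all pairings of the 9 libraries. Transcripts were compared with GENCODE M21 in Python 3.11.15 with Biopython 1.88 (global alignment of coding sequences, and exact windows on the transcript strand). The edgeR step was tested on simulated counts, and the permutation code was compared with SciPy's on small simulated examples. P-values for group differences set them against the spread between these libraries, which could not be tied to individual mice. These p-values and those of the correlations hold only if the libraries are independent, which pooled RNA would break.

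The members and the gene lists were chosen with earlier results of these data known. Named were the 4 members, the basal and suprabasal keratins, up to 3 genes of each other list by unadjusted p, the 8 genes with the highest mean r with the members, and genes of near-identical sequence. The genes most like each single member, other correlated genes of the lists, and Il17ra, Il17rc and Cebpb were named after their values were seen. Alternatives were DESeq2's size factors, DESeq2 1.42.0's Wald test, limma 3.58.1 on log2(FPKM + 1), other filters on low counts, covariates, leaving out each library, and, for single values, a pseudocount of 0.1, FPKM, ranks and levels relative to Krt14. Covariates for GC content and muscle, and list counts with libraries left out, were added after the data were seen. For these list counts the share over all genes was not computed.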

Additional observations from a re-analysis of the deposited data

How the results depend on the processing

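Of 205 values recomputed under 25 alternative settings, 189 kept the main outcome. For a fold change, difference or ratio this means the same direction and side of the threshold. The log2 fold change of Krt17 in DESeq2's Wald test had no p and was counted as kept by its direction alone. The 205 also hold numbers of genes called, which have no direction and were counted as kept where unchanged. The threshold was passed only without MXL12 by 3 values (the log2 CPM differences of Krt6b and Krt16 and the ratio of Krt6b to Krt6a). The number of genes called was 12 with DESeq2's Wald test, of which 0 were stress keratins, but Krt17 had no p in that test and could not be called. It was 0 under all other settings. The log2 fold change of Krt6a was -0.025 with the replicate block and -0.22 in the same 6 libraries without it, a fit added after the data were seen. Its difference in log2 CPM was -0.29 relative to Krt14, and in ranks it was 0. That of Krt17 was 0.45 in ranks. With 1 library left out, the log2 fold changes ran from -0.26 to 0.78 for Krt6a, 0.23 to 3.15 for Krt6b, 0.73 to 2.40 for Krt16 and -1.77 to 1.22 for Krt17. The differences in log2 CPM then ran from -0.24 (without MXL_3) to 0.73 for Krt6a, 1.04 to 2.76 for Krt6b, 1.13 to 2.37 for Krt16 and -0.75 to 0.79 for Krt17, where leaving out MR5 gave 0.26. The log2 ratios ran from 1.11 to 2.05 for Krt6b to Krt6a, 1.06 to 3.12 for Krt16 to Krt17, and -0.75 to 0.050 for type II to type I. The cause of these shifts was not tested beyond the library left out.

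The column codes share the numbers 1, 3 and 3_4 between the groups. Between libraries that share a number, deviations from the group means correlated at 0.225, 0.118 and -0.22. No unmatched libraries were set beside these values, so whether the numbers pair the libraries was not settled. A replicate block on these 6 libraries called 0 genes and gave log2 fold changes of 1.80 for Krt6b (unadjusted p = 0.00358), 1.85 for Krt16 (unadjusted p = 0.000584) and -0.18 for Krt17. The same 6 libraries without the block gave 1.59 for Krt6b (unadjusted p = 0.0232), 1.67 for Krt16 (unadjusted p = 0.0202) and -0.99 for Krt17. Each of these 6 values had an adjusted p of 1 in edgeR. The lowest count, 894 for Krt6b in MXL_3, leaves random counting error small beside the spread between libraries. This does not cover reads that fit both Krt6a and Krt6b, whose placing was not tested.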
